A study of Mus musculus with 43 samples.

Results

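The 10 genes described here make up the MHC class II presentation pathway in the mouse: the peptide-binding chains H2-Aa, H2-Ab1 and H2-Eb1, the invariant chain Cd74, the peptide-exchange chains H2-DMa, H2-DMb1 and H2-DMb2, their modulators H2-Oa and H2-Ob, and the transactivator Ciita. They were taken by name, and all 10 were found among the 55416 genes of the count tables through their Ensembl IDs. The tables hold 43 RNA-seq libraries of glia purified from the cerebral cortex of 3-month-old mice, and the study asked whether glia differ when lymphocytes are absent. Each cell type was captured by immunopanning, in which dissociated cells stick to plates coated with an antibody: anti-CD45 for microglia, anti-HepaCAM for astrocytes, anti-PDGFRα for oligodendrocyte precursor cells (OPCs) and anti-GalC for oligodendrocytes. There were 6 control and 6 Rag2-/- libraries of microglia and of astrocytes, 6 and 5 of OPCs, and 4 and 4 of oligodendrocytes. Controls were littermates of the Rag2-/- mice, and 4 of the 6 microglia controls were Rag2+/- and 2 were Rag2+/+. Of the controls, 4 of 6 were Rag2+/- in astrocytes and OPCs too and 3 of 4 in oligodendrocytes, and the rest were Rag2+/+. Females gave 2 control and 3 Rag2-/- libraries of microglia and of astrocytes, 2 and 2 of OPCs, and 1 and 2 of oligodendrocytes. The Rag2 allele is carried in every cell of the animal, without a Cre or a promoter to limit it, on a C57BL/6J background that all groups share. Rag2 is needed to assemble antigen receptor genes, so Rag2-/- mice lack mature T and B cells. The anti-CD45 antibody also binds macrophages at the brain's borders and blood leukocytes that perfusion leaves behind.

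Class II molecules carry peptides from taken-up material to the cell surface, where CD4+ T cells read them. An alpha and a beta chain assemble in the endoplasmic reticulum with the invariant chain, which fills the peptide groove and steers the complex to endosomes. Proteases there cut the invariant chain down to a short remnant, which H2-DM exchanges for an antigen peptide and which H2-DO, made of H2-Oa and H2-Ob, keeps H2-DM from doing freely. Ciita binds no DNA itself and switches the class II genes on through the RFX, CREB and NF-Y factors on a shared promoter module. In the brain class II protein is known mainly from border macrophages, dendritic cells and microglia in disease, and microglia of the healthy cortex are known for low levels.

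The shared promoter module can be read in the genome of the build used for the counts, GRCm39, and is shown first because it is the sequence through which Ciita is known to act on these genes. Windows of 300 bases, from 250 before to 50 after the start of the transcript that Ensembl marks as canonical, were searched on the gene's strand and its complement. The CCAAT-type letters TGATTGG were found in 7 of the 10 members and in 9.215% of 21770 windows of protein-coding genes. These letters were chosen after the windows had been seen. The pair of AGNAAC, part of an X box, followed 20 to 35 bases later by ATTGG, part of a Y box, was found in 3 members, H2-Eb1, H2-Oa and H2-Ob, against 0.988% of all windows. ATTGG alone, which lies inside TGATTGG, was in 8 members against 39.922% of windows, and AGNAAC alone was in 7 members against 48.144%. The 45 bases before TGATTGG and the 10 after it are given for the 7 members that hold it, all on chromosome 17, in the direction of the gene, with TGATTGG in capitals and AGNAAC in capitals where the pair occurs.
H2-Aa: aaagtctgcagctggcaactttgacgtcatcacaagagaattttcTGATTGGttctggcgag
H2-Ab1: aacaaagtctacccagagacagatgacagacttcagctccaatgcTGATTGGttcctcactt
H2-Eb1: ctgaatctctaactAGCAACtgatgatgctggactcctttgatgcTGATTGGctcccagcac
H2-DMa: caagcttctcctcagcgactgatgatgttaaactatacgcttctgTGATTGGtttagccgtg
H2-DMb2: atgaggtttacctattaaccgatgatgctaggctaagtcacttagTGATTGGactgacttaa
H2-Oa: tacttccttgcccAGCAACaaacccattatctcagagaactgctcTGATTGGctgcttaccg
H2-Ob: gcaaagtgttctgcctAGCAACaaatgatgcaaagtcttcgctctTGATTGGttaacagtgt
These stretches lie at chr17:34506831-34506892 on the minus strand for H2-Aa and, on the plus strand, at chr17:34482109-34482170 for H2-Ab1, chr17:34524735-34524796 for H2-Eb1, chr17:34354474-34354535 for H2-DMa, chr17:34364086-34364147 for H2-DMb2, chr17:34311263-34311324 for H2-Oa and chr17:34457775-34457836 for H2-Ob. TGATTGG began between 6 bases before the start in H2-Oa and 50 bases before it in H2-Aa. The windows of Cd74, Ciita and H2-DMb1 did not hold TGATTGG.

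All 8 H2 members lie within one stretch of chromosome 17, from H2-Oa at chr17:34311314-34314328 to H2-Eb1 at chr17:34504236-34535648 (GRCm39). Cd74 is at chr18:60936899-60945731 and Ciita at chr16:10297923-10347694. Some members share exonic bases with a neighbour on the opposite strand: 11.78% of H2-DMa with Brd2, 25.93% of H2-Oa with the noncoding BC051537, 5.73% of Ciita with Dexi, and 2.75% of H2-Aa with H2-Eb1. For H2-Eb1 this was 9.55%, with H2-Aa and the noncoding Gm20513. For H2-DMb1 it was 16.95%, with the noncoding Gm64535, which is not in the counted annotation. The amplification kit is not stated to mark strand and the strand setting of the counter is not given in the sources used here, so reads from such overlaps cannot be assigned with certainty. H2-DMb1 and H2-DMb2 are near copies, with 94.11% identity over 1291 aligned transcript bases. Of the 50-base windows, 31.73% of those of the H2-DMb1 transcript and 31.92% of those of H2-DMb2 also occur in other genes, 601 of them for H2-DMb2. The values of these 2 genes are uncertain for that reason.

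Libraries held 6499417 to 23118497 read pairs counted in genes, and values are given as CPM, the count of a gene scaled by that total. Mitochondrial genes took 6.75% to 11.7% of the counts in microglia and 45.8% to 60.1% in oligodendrocytes, which lowers the CPM of every other gene in the latter. They took 22.4% to 36.7% in OPCs and 22.5% to 45.1% in astrocytes, where the CPM of other genes is lowered too. The 9 microglia markers matched by ID summed to 8408 to 10650 CPM in microglia and to at most 1046 CPM in any other library. The 6 markers of astrocytes, of OPCs and of oligodendrocytes likewise summed highest in the cells of that name, with no overlap, at 14030 CPM or more, 3543 CPM or more and 15910 CPM or more. Rag2 had at most 4 counts in any library, so its own transcript cannot check the genotype. Iftap, which overlaps Rag2 on the opposite strand, served instead: it had 14 to 131 counts in control microglia and at most 1 in the Rag2-/- libraries, and it was the single gene past the threshold by genotype in microglia.

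Every member had counts in every library of the anti-CD45 captured cells, called microglia here. H2-Aa, the alpha chain of I-A, had 169, 216 and 238 CPM (lowest, median and highest of the 6 controls) and 152, 178 and 237 CPM in the 6 Rag2-/- libraries. Its partner H2-Ab1 had 152, 203 and 237 CPM in controls and 133, 158 and 218 CPM in Rag2-/- libraries. The I-A chains were thus close to even in counts, with 0.935 ± 0.128 H2-Ab1 counts for each H2-Aa count (mean ratio within a library ± SD, n = 12). H2-Eb1, the beta chain of I-E, had 72.0, 80.5 and 104.1 CPM in controls and 61.9, 76.2 and 99.3 CPM in Rag2-/- libraries. Its usual partner H2-Ea, which C57BL/6 mice do not express, had at most 3 counts in any microglia library, and H2-Eb2 at most 10. Cd74 was the most abundant member, with 256, 387 and 454 CPM in controls and 313, 378 and 448 CPM in Rag2-/- libraries.

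The peptide-exchange genes were uneven. H2-DMa had 91.4, 103.5 and 115 CPM in control microglia and 80.7, 116 and 136 CPM in Rag2-/- microglia. Its beta partners were far lower: H2-DMb1 had 9.02, 12.9 and 13.3 CPM in controls and 11.6, 14.7 and 22.8 CPM in Rag2-/- libraries, and H2-DMb2 had 2.23, 2.40 and 3.38 CPM and 1.17, 2.39 and 2.94 CPM. The alpha chain of H2-DM thus exceeded the sum of both beta chains in every library, as far as the counting of these near copies allows. H2-Oa had 10.4, 11.5 and 16.1 CPM in controls and 12.1, 14.5 and 15.8 CPM in Rag2-/- libraries. H2-Ob had 15.5, 22.3 and 28.6 CPM in controls and 17.9, 20.6 and 22.3 CPM in Rag2-/- libraries. Ciita was scarce, with 1.94, 5.95 and 6.87 CPM in controls, or 16 to 85 counts, and 3.30, 4.79 and 5.39 CPM in Rag2-/- libraries. The control and Rag2-/- ranges overlapped for all 10 members.

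**Figure D1:**
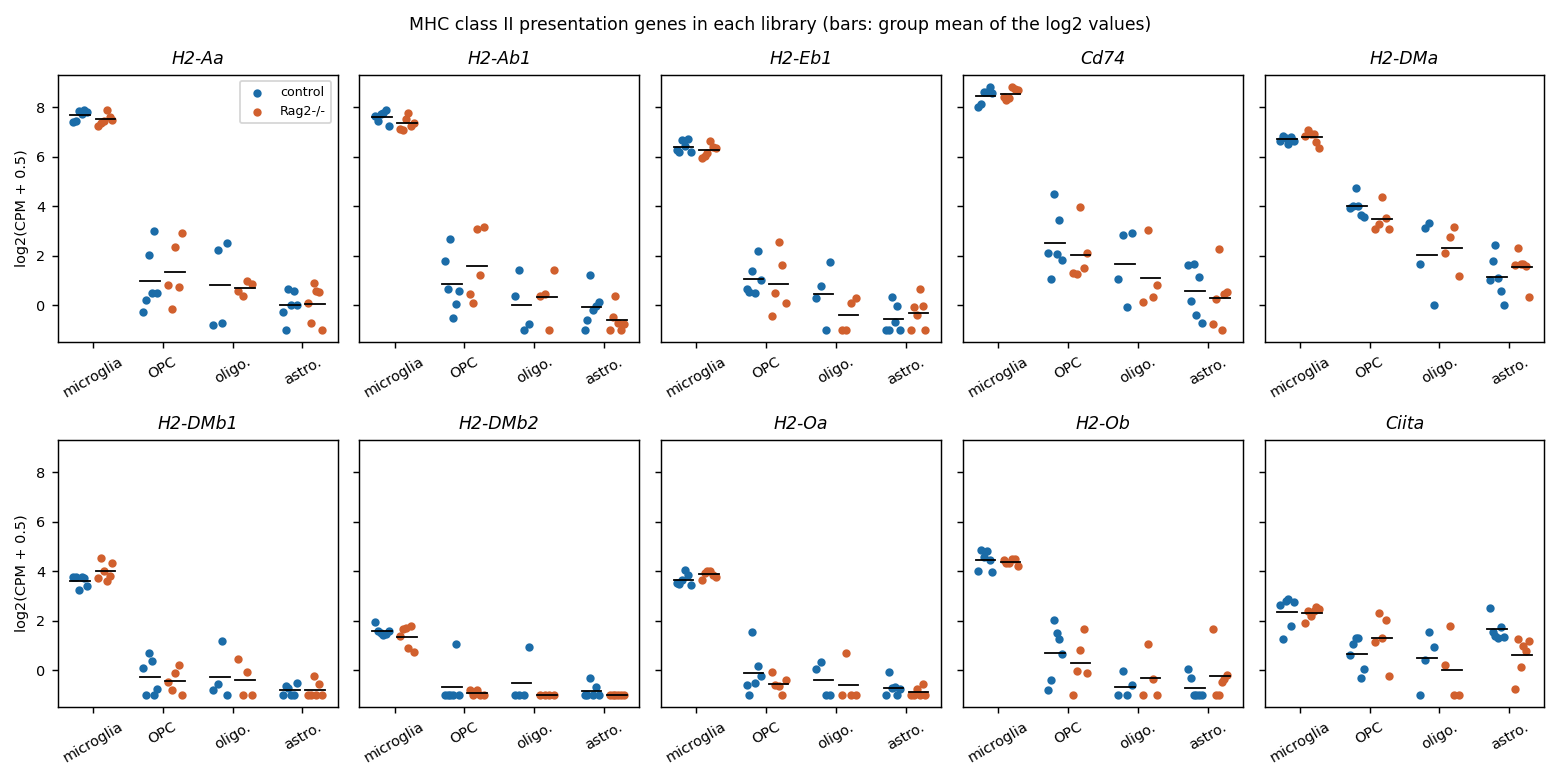
Each point is 1 library, on a log2 axis of CPM plus 0.5, by cell type and genotype for each of the 10 genes; black bars are means of the log2 values. Control and Rag2-/- microglia overlap for every gene, and control microglia sit above the other glia for every gene but Ciita; for H2-DMb2, 1 control OPC and 1 control oligodendrocyte library reach into the range of Rag2-/- microglia.

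Set against length, as CPM per kb of the canonical transcript in the 6 control microglia, Cd74 was highest at 251 ± 53.3 (mean ± SD), followed by H2-Aa at 183 ± 25.8 and H2-Ab1 at 163 ± 25.3. The ranges of these 3 genes overlapped. H2-DMa came next at 90.0 ± 7.45 and H2-Eb1 after it at 50.2 ± 8.30, each apart from its neighbours. H2-Oa (10.2 ± 1.82), H2-DMb1 (8.46 ± 1.32) and H2-Ob (8.12 ± 2.12) could not be ordered beyond their spread. H2-DMb2 (1.73 ± 0.298) and Ciita (0.673 ± 0.275) were lowest, and Ciita stood at 0.268% of Cd74 on this scale. With the merged exons of all transcripts as the length, H2-Ab1 moved above H2-Aa and H2-Eb1 above H2-DMa, and the other ranks were kept.

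Whether class II genes differ in microglia without lymphocytes was tested with edgeR's quasi-likelihood test, with sex and genotype in the model. None of the 10 members passed an adjusted p of 0.05, and all 10 had an adjusted p of 0.999; of all genes tested, 0.00667% passed. At an unadjusted p under 0.05 there were 0 members as well, and DESeq2 and voom with quality weights also called 0. H2-Ab1 had the lowest fold, with a log2 fold change of -0.23 (SE 0.12, 95% confidence interval -0.49 to 0.02), and was lower in the Rag2-/- mouse of 4 of 6 littermate pairs. H2-Aa stood at -0.14 (-0.37 to 0.08), lower in 5 of 6 pairs, and H2-Eb1 at -0.13 (-0.39 to 0.13). The 3 chains pointed down together while Cd74 stood at 0.09 (-0.15 to 0.34), and none of these intervals excluded 0. For Cd74, H2-Aa, H2-Ab1, H2-Eb1 and H2-DMa the intervals were narrow, and none reached a log2 fold change of 0.50 in either direction.

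Of the remaining members, H2-DMb1 had the highest fold, at 0.38 (SE 0.21, -0.05 to 0.81), and was higher in the Rag2-/- mouse of 4 of 6 pairs. H2-Oa stood at 0.23 (-0.13 to 0.60), higher in 5 of 6 pairs, and H2-DMa at 0.12 (-0.14 to 0.39). H2-Ob was at -0.07 (-0.40 to 0.26) and H2-DMb2 at -0.21 (-1.03 to 0.61). For Ciita the estimate was 0.03 and the interval ran from -0.67 to 0.72. The median over the 10 members was -0.02, beside -0.01 over all genes tested.

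**Figure D2:**
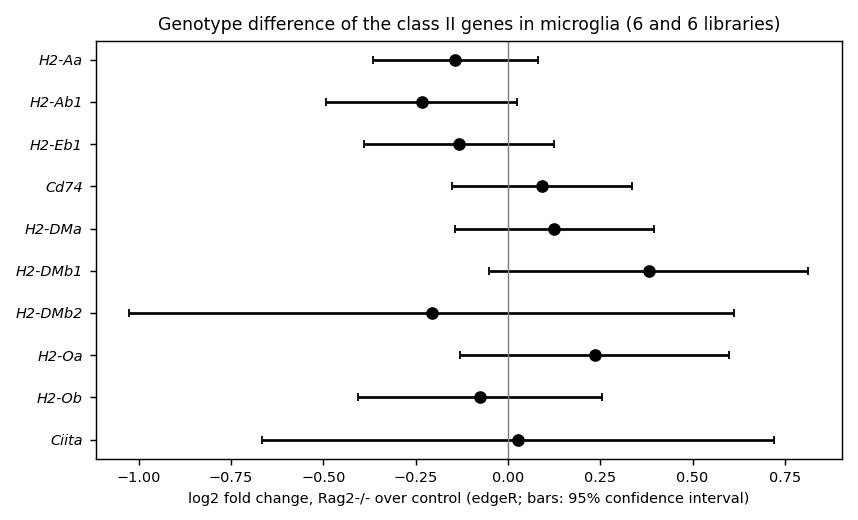
Points are log2 fold changes of Rag2-/- over control microglia from edgeR, with sex in the model, and bars are 95% confidence intervals, for 6 libraries a group. All 10 intervals span 0; they are narrow for H2-Aa, H2-Ab1, H2-Eb1, Cd74 and H2-DMa and wide for Ciita and H2-DMb2.

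None of the 10 members passed in female against male microglia in the same edgeR model (0.0467% of all genes did, and 0 members at an unadjusted p under 0.05), with log2 differences from -0.41 for Ciita to 0.34 for H2-DMb1, both with an adjusted p of 1.00. Ciita had 1.94 and 2.98 CPM in the 2 control females and 5.69, 6.20, 6.51 and 6.87 CPM in the 4 control males, but 4.73, 5.08 and 5.39 CPM in the 3 Rag2-/- females and 3.30, 4.12 and 4.85 CPM in the 3 Rag2-/- males. The 2 control females were Rag2+/- and the 2 Rag2+/+ controls were male, so sex and genotype were partly mixed within the controls. The sexes did not overlap in the controls, and the model holds 1 sex term for both genotypes. The share of all genes with such a separation was not computed. A difference of the genotype effect between the sexes was not tested.

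Outside microglia class II transcripts were rare. H2-Aa had 0.325, 0.890 and 7.43 CPM (lowest, median, highest) in the 6 control OPC libraries, 0.0791, 0.111, 4.24 and 5.27 CPM in the 4 control oligodendrocyte libraries, and 0, 0.494 and 1.06 CPM in the 6 control astrocyte libraries. Cd74 had 1.60, 3.74 and 21.8 CPM in control OPCs, 0.444, 1.58, 6.59 and 7.02 CPM in control oligodendrocytes and 0.0981, 1.16 and 2.65 CPM in control astrocytes. H2-Ab1 had medians of 1.02, 0.437 and 0.430 CPM and H2-Eb1 medians of 1.28, 0.968 and 0.0623 CPM in the same 3 groups. Every library of the other glia lay below every microglia library for these 4 genes, and the ranges of the other 3 cell types mostly overlapped. For H2-Eb1, control OPCs at 0.893 to 4.08 CPM lay above control astrocytes at 0 to 0.742 CPM. The share of all genes that separate in either way was not computed. In bulk libraries fewer cells with a transcript and less of it per cell cannot be told apart.

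Against control astrocytes, 9 of the 10 members were higher in control microglia by edgeR, where 28% of all genes tested were. The joint fit held all 10 members, but only 2 passed the filter on low counts in astrocytes alone, 7 in OPCs and 3 in oligodendrocytes. The others entered through microglia, where they are high, so the number of members called in these contrasts is a description, and nothing is read from it against the share of all genes. The log2 fold change was 8.22 for H2-Aa (SE 0.75, adjusted p = 1.63e-12), 8.16 for H2-Ab1, 8.22 for H2-Eb1 and 7.86 for Cd74, and 5.41 for H2-DMa. Ciita was the exception at 0.57 (SE 0.71, adjusted p = 0.502), with 1.99, 2.29 and 5.29 CPM in control astrocytes. Without astrocyte control replicate 3 the values rose to 8.96 for H2-Ab1, 9.12 for H2-Eb1 and 6.12 for H2-DMb2 (4.66 with it), without replicate 2 that of H2-Oa rose from 6.34 to 7.22, and without replicate 1 that of H2-Ob rose from 7.07 to 8.34. In the Rag2-/- groups Ciita stood at 1.65 and passed (adjusted p = 0.0496). The differences there were smaller for H2-Ob (4.87) and H2-Eb1 (7.40), and larger at 9.25 for H2-Ab1, 7.41 for H2-DMb2 and 7.64 for H2-Oa.

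Against control OPCs, all 10 members were higher in control microglia, where 25.8% of all genes were. The log2 fold change was 6.70 for H2-Aa (SE 0.67, adjusted p = 1.84e-11), 6.84 for H2-Ab1, 5.76 for H2-Eb1 and 5.80 for Cd74, 2.84 for H2-DMa and 2.11 for Ciita (adjusted p = 0.0133). In the Rag2-/- groups the Ciita difference was 1.03 and did not pass (adjusted p = 0.242). The differences there were smaller for H2-Aa (5.97) and H2-Ab1 (5.40) and larger for Cd74 (6.46), H2-DMb1 (5.99 against 4.87), H2-DMb2 (5.73), H2-Oa (6.14) and H2-Ob (4.67 against 4.07). Without OPC control replicate 3 the value was 7.59 for H2-Ab1, 6.50 for Cd74 and 5.64 for H2-Oa (4.47 with it), and without replicate 5 it was 7.44 for H2-Aa and 7.68 for H2-DMb2 (3.71 with it), and that library held all 15 H2-DMb2 counts of the group.

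Against control oligodendrocytes, 8 of the 10 members were higher in control microglia, where 27.1% of all genes were. The log2 fold change was 5.44 for H2-Aa (SE 0.76, adjusted p = 7.33e-08), 7.22 for H2-Ab1, 5.19 for H2-Eb1, 5.77 for Cd74 and 3.47 for H2-DMa. Ciita stood at 1.09 (SE 0.84, adjusted p = 0.272) and H2-DMb2 at 1.66 (SE 1.24, adjusted p = 0.260). The H2-DMb2 result rests on 1 library: oligodendrocyte control replicate 6 held all 17 counts of the group, and without it the value was 7.64 with an adjusted p of 0.0019. Leaving out the same library gave 6.43 for H2-Aa, 6.25 for H2-Eb1 and 6.39 for Cd74; without replicate 5 H2-DMb1 rose from 3.62 to 6.47, H2-DMa to 4.16 and Ciita to 1.89, and without replicate 3 H2-Ab1 rose to 8.32, H2-Oa from 4.47 to 5.08 and H2-Ob from 6.40 to 7.54. Between the Rag2-/- groups the values were 6.37 for both H2-Aa and H2-Ab1, 6.89 for H2-Eb1, 6.50 for Cd74, 4.66 for H2-DMb1, 4.88 for H2-Ob and 7.39 for H2-DMb2, which passed (adjusted p = 0.0018). In Rag2-/- animals H2-DMb2 had no count in oligodendrocytes or in astrocytes, which allows at most 0.0592 and 0.0486 CPM at 3 counts over the group. Its 2.20 CPM over the pooled Rag2-/- microglia libraries was 37.2-fold and 45.3-fold above these limits, with counting error alone considered. The totals here include mitochondrial counts, which take a larger share in oligodendrocytes and astrocytes than in microglia. Both folds would be smaller with those genes left out.

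**Figure D3:**
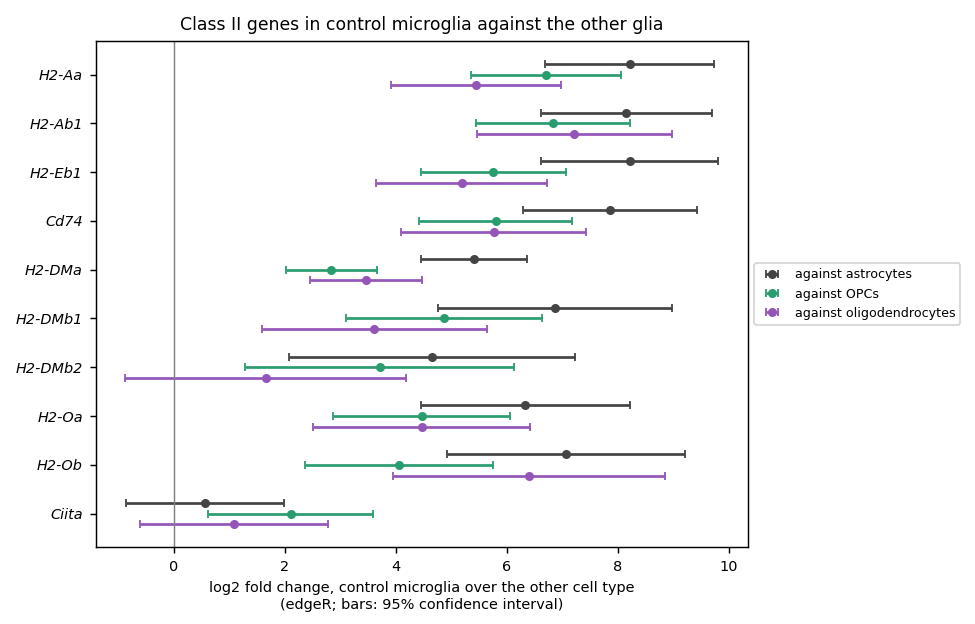
Points are log2 fold changes of control microglia over control astrocytes, OPCs and oligodendrocytes from a joint edgeR fit of 43 libraries, and bars are 95% confidence intervals. The 3 peptide-binding chains and Cd74 lie between 5.19 and 8.22, and Ciita is nearest to 0 in all 3 contrasts.

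H2-DMa was the exchange gene measured at the most counts in OPCs. It had 11.4, 15.2 and 26.3 CPM in control OPCs and 7.96, 8.04, 9.19, 11.1 and 20.3 CPM in the 5 Rag2-/- OPC libraries, with 113 to 275 counts in each control library. Control OPCs lay above control oligodendrocytes, at 0.502, 2.69, 8.10 and 9.44 CPM, without overlap, and oligodendrocytes overlapped astrocytes, at 0.490, 1.58 and 4.87 CPM. The share of all genes that separate OPCs from oligodendrocytes in this way was not computed. Mitochondrial transcripts weigh on the oligodendrocyte values: with their genes left out of the totals, a choice made after seeing the data, H2-DMa in control oligodendrocytes moved from 5.00% to 9.16% of its control microglia mean, and the median of the 9 microglia markers moved from 4.46% to 8.18%. On that scale control OPCs, at 15.2 to 34.8 CPM, and control oligodendrocytes, at 1.20 to 19.7 CPM, overlapped. Taken as that share, H2-DMa stood at 15.4% ± 5.23 (SD, n = 6) in control OPCs, against 1.11% ± 1.34 for H2-Aa and 2.05% ± 2.14 for Cd74. The median of the 9 microglia markers stood at 5.43% ± 3.08 in those libraries. H2-DMa was above that median in 11 of 11 OPC libraries, in 9 of 12 astrocyte libraries and in 3 of 8 oligodendrocyte libraries. The share of all genes above that median was not computed, here or for the other members. Brd2, whose exons overlap those of H2-DMa, had 302 ± 53.8 CPM in control OPCs and 791 ± 119 CPM in control microglia. Its part in the H2-DMa counts was not tested.

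H2-Aa, H2-Ab1, H2-Eb1 and Cd74 behaved otherwise. Their share of the microglia level was below the median of the microglia markers in 11 of 11 OPC libraries and in 12 of 12 astrocyte libraries for each of the 4 genes, and in 7 of 8 oligodendrocyte libraries for H2-Aa and H2-Eb1 and 8 of 8 for H2-Ab1 and Cd74. Ciita was above it in 11 of 11 OPC, 11 of 12 astrocyte and 5 of 8 oligodendrocyte libraries, at 24.8% ± 14.5 of its low microglia level in control OPCs and 55.7% ± 25.1 in control astrocytes. Dexi, its overlapping neighbour, had 11.9 ± 3.36 CPM in control OPCs, 8.65 ± 1.59 CPM in control astrocytes and 5.63 ± 2.33 CPM in control microglia, and its part in the Ciita counts was not tested. Border macrophage markers fell further than the microglia markers in OPCs and astrocytes, and less far in oligodendrocytes, by the medians of their sums. The border macrophage sum had a median of 814 CPM in control microglia, 21.5 in OPCs, 40.3 in oligodendrocytes and 5.51 in astrocytes. For the 9 microglia markers these control medians were 9644, 454.5, 324.6 and 170.7 CPM. The class II shares were not tested against the border macrophage sum.

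**Figure D4:**
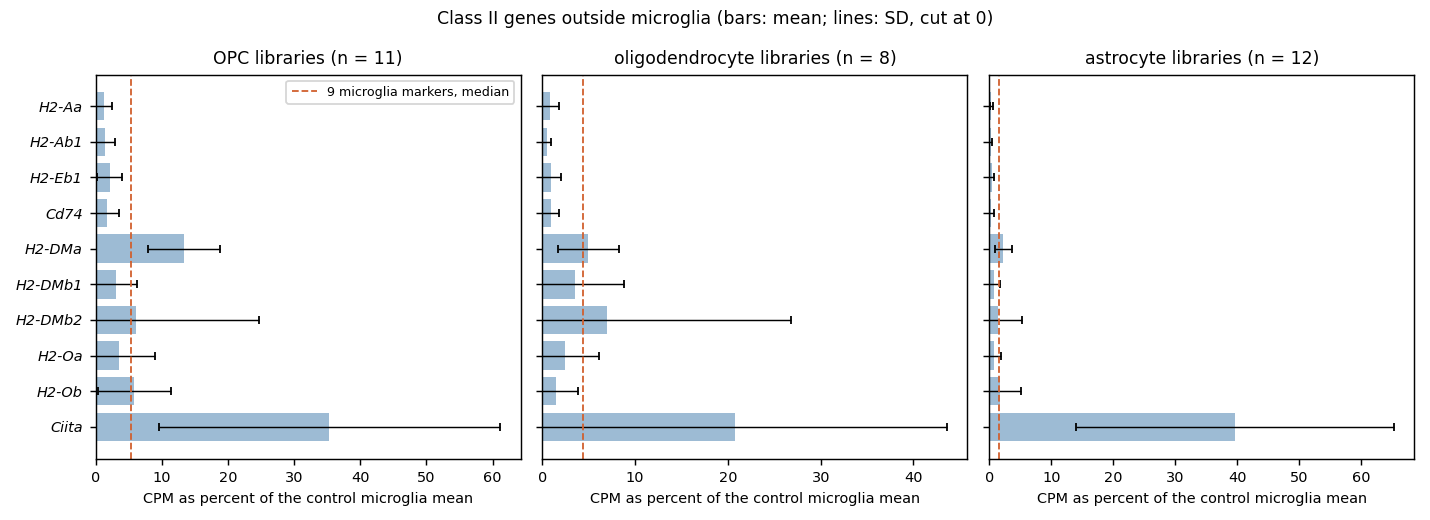
Bars are the mean CPM of each gene in OPC, oligodendrocyte and astrocyte libraries of both genotypes as a percent of its mean in control microglia, lines are SDs cut at 0, and the dashed line is the mean over libraries of the median percent of 9 microglia markers. H2-Aa, H2-Ab1, H2-Eb1 and Cd74 lie left of the dashed line in each panel, and Ciita lies right of it.

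Within the other glia no member passed by genotype with edgeR, and few had enough counts to be tested. In OPCs 7 of 10 members were tested and 0 passed (0.00592% of all genes did; 0 members at an unadjusted p under 0.05). H2-Ab1 had the highest value there, at 1.28 (SE 0.87, adjusted p = 1.00), with 0.569, 0.851, 1.83, 7.85 and 8.44 CPM in the 5 Rag2-/- libraries and 0.198, 1.02 and 5.84 CPM in controls. With the littermate pair as a block this value was 0.0588, with voom 0.59, without Rag2-/- replicate 6 it was 0.35 and without control replicate 3 it was 1.88. The 2 high Rag2-/- libraries differed from each other: replicate 3 held 110 H2-Ab1, 65 H2-Aa and 214 Cd74 counts, and replicate 6 held 195, 165 and 88. H2-DMa stood at -0.42 (SE 0.29, unadjusted p = 0.165, adjusted p = 1.00) and was lower in the Rag2-/- mouse of 5 of 5 pairs. In astrocytes 2 members were tested and 0 passed (0.00679% of all genes did). Ciita stood at -1.37 (SE 0.56, unadjusted p = 0.0245, adjusted p = 1.00), with 0.0932, 1.37 and 1.92 CPM in Rag2-/- libraries, all below the lowest control at 1.99 CPM, and lower in 6 of 6 pairs. These were 1 to 19 counts, against 16 to 48 in controls. In the edgeR fit without a filter Ciita ranked 804 by p among all genes. How many genes have separate ranges, or all pairs one way as here and for H2-DMa in OPCs, was not computed, and nothing is read from either. In oligodendrocytes 3 members were tested, Cd74, H2-Aa and H2-DMa, and 0 passed, as did 0% of all genes, where 467 genes but none of these 3 members had an unadjusted p under 0.05. DESeq2 called 0 members in all 3 cell types, with 205 genes called in oligodendrocytes.

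The genotype effect in microglia was also set against the average of the effects in astrocytes, OPCs and oligodendrocytes. None of the 10 members passed this test of the difference with edgeR (0.00936% of all genes did), and the values ran from -1.04 for H2-Ob to 3.50 for H2-DMb2 (SE 1.28, unadjusted p = 0.0099, adjusted p = 0.742). Outside microglia H2-DMb2 had 15 counts in 1 control OPC library, 17 in 1 control oligodendrocyte library and at most 3 in any other. The H2-DMb2 value was 1.501 without oligodendrocyte control replicate 6, 2.19 without OPC control replicate 5, 1.86 with heterozygous controls alone and 0.47 with voom. That of H2-Ob was -0.38 without oligodendrocyte Rag2-/- replicate 3 and -0.41 with voom.

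The genes that work with class II were described from a list of 28: the RFX, NF-Y and CREB factors on the promoter, the interferon gamma and myeloid inducers of Ciita, the lysosomal enzymes, the ligases that turn class II over, and the remaining class II loci. Cathepsin S (Ctss), which trims the invariant chain, had 2615 ± 293 CPM in control microglia, the thiol reductase Ifi30 had 100.1 ± 17.6 CPM, and Cd83, which keeps class II at the surface by blocking Marchf1, had 3389 ± 405 CPM. Of the 26 genes tested, 20 were higher and 1 was lower in control microglia than in control astrocytes, 17 higher and 2 lower than in OPCs, and 20 higher and 2 lower than in oligodendrocytes. Of all genes tested, 28%, 25.8% and 27.1% were higher in these 3 contrasts and 30.7%, 32.4% and 29.3% were lower. The myeloid factors Spi1 and Irf8 stood at 7.61 and 6.27 (log2) over astrocytes, 4.98 and 5.01 over OPCs and 4.91 and 4.84 over oligodendrocytes.

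Of the promoter factors, Nfya was higher in microglia at 3.58 over astrocytes, 2.57 over OPCs and 2.41 over oligodendrocytes, and Creb1 at 2.00, 1.71 and 1.38. Nfyb passed over astrocytes, at 0.89, and not in the other contrasts, Rfxap was lower than in OPCs at -0.79, and Nfyc passed in none. Rfx5 stood at 0.63 over astrocytes and 0.79 over OPCs, neither of which passed, and at 2.15 over oligodendrocytes, which did, and Rfxank was lower in microglia than in astrocytes at -1.74 (adjusted p = 0.0062). The ubiquitin ligase Marchf1 was higher in microglia than in astrocytes at 2.06 and lower than in OPCs at -0.86 and than in oligodendrocytes at -1.12. By genotype 0 of 26 passed in microglia, astrocytes, OPCs or oligodendrocytes with edgeR, with 1, 1, 0 and 1 at an unadjusted p under 0.05. The smallest p in microglia were those of Ctsl, at -0.36 (SE 0.14, unadjusted p = 0.0165), Creb1, at -0.22 (SE 0.12, unadjusted p = 0.0676), and Marchf8, at -0.26 (SE 0.14, unadjusted p = 0.0693), each with an adjusted p of 0.999.

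Border macrophages and other leukocytes could sit among anti-CD45 captured cells, so their markers were read in the same libraries. The 10 border macrophage markers in microglia libraries summed to 466.2, 814 and 1065 CPM in controls and 496, 726 and 974 CPM in Rag2-/- libraries, led by Mrc1 at 378 ± 73.4 and 344 ± 90.7 CPM. Folr2 was near the floor, with 0 to 5 counts in controls and 0 to 8 counts in Rag2-/- libraries. The 9 dendritic cell markers summed to 152, 207 and 229 CPM and 162, 180 and 225 CPM, but the list was uneven. In controls Zbtb46 had a mean of 97.0 CPM, Ccr7 45.5, Cd209a 22.4 and Batf3 17.3 CPM. Clec10a had 7.55, Xcr1 6.25, Itgae 2.89, Flt3 2.65 and Clec9a 0.174 CPM. The 10 B cell markers summed to 319, 385 and 482 CPM and 326, 377 and 412 CPM, but nearly all of this was Ighm, at 357 ± 60.3 and 347 ± 28.7 CPM. The defining B cell gene Pax5 had at most 12 counts in a control microglia library and 0 in all 6 Rag2-/- libraries, and Igkc had 0 to 151 counts in controls and at most 1 in Rag2-/- libraries. Other genes of the list had similar means in both genotypes, with Cd79b at 4.08 and 4.15 CPM, Cd22 at 8.28 and 9.72 CPM and Ighd at 14.1 and 13.9 CPM in controls and Rag2-/- libraries. The 10 T cell markers summed to 19.3, 37.2 and 48.1 CPM in controls and 19.2, 25.8 and 39.1 CPM in Rag2-/- libraries. Of these Cd3e had 2.14 ± 1.02 CPM in controls and 0 counts in all 6 Rag2-/- libraries, while Cd4 had 10.1 and 10.6 CPM and Cd5 8.52 and 10.0 CPM. The 10 monocyte and neutrophil markers summed to 38.0, 43.2 and 58.9 CPM in controls and 15.4, 36.01 and 142 CPM in Rag2-/- libraries. The part of these cells in the class II levels was not tested.

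Across the 12 microglia libraries, H2-Aa, H2-Ab1, H2-Eb1 and Cd74 were each set against the summed CPM of 5 marker lists, 20 relations in all. None passed after adjustment over the 20, with adjusted permutation p of 0.553 or more for Pearson's r and 0.0898 or more for Spearman's rho. The smallest unadjusted p was that of H2-Aa with the monocyte and neutrophil sum (rho = 0.77, permutation p = 0.00449, and r = 0.29, permutation p = 0.423), which went to r = 0.75 without the 2 farthest libraries, Rag2-/- replicates 5 and 1. With the border macrophage sum the values were r = 0.45 for H2-Aa (permutation p = 0.140, rho = 0.51, permutation p = 0.0941) and r = 0.44 for Cd74 (permutation p = 0.156, rho = 0.49, permutation p = 0.112), and 0.78 and 0.57 without control replicate 3 and Rag2-/- replicate 3. Within genotypes Cd74 and this sum had r = 0.15 over the 6 controls and r = 0.95 over the 6 Rag2-/- libraries; the difference was not tested. With the B cell sum H2-Aa had r = 0.56 (permutation p = 0.0553, rho = 0.59, permutation p = 0.0485), falling to 0.32 without control replicates 5 and 1.

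Over the same 12 libraries the members were set against each other, as a description. After the genotype means were removed, log2 CPM of H2-Aa had r = 0.89 with Cd74, 0.84 with H2-Eb1 and 0.62 with H2-Ab1, and H2-Ab1 had r = 0.79 with H2-Eb1. The 6 pairs among these 4 genes ran from 0.46 to 0.89, with a median of 0.78. The 39 remaining pairs ran from -0.58 to 0.67, with a median of -0.01. The highest of these was H2-Oa with H2-Ab1 at 0.67, and H2-Oa had r = 0.49 with H2-Aa, 0.49 with H2-Eb1 and 0.43 with Cd74. H2-DMa had r = -0.07 with H2-Aa and -0.32 with Cd74, and Ciita had r = 0.33 and 0.28. The points share library totals, and genes with few counts, such as Ciita and H2-DMb2, carry more counting noise into these values.

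**Figure D5:**
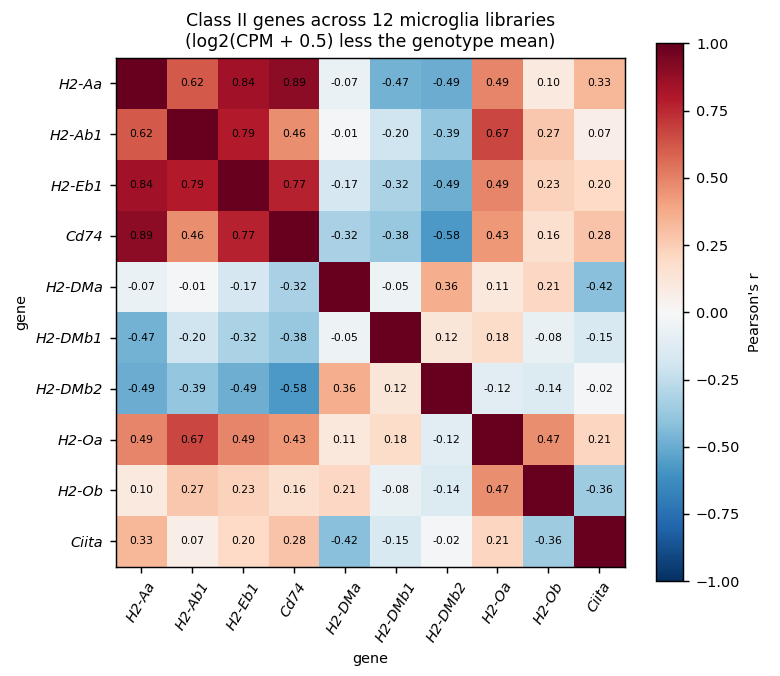
Each cell gives Pearson's r of log2 CPM between a pair of members over 12 microglia libraries after each genotype's mean was removed; the diagonal is 1 by construction. H2-Aa, H2-Ab1, H2-Eb1 and Cd74 form a block of positive values from 0.46 to 0.89, and the H2-DM, H2-DO and Ciita rows hold both signs.

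The genes whose log2 CPM was most like the mean profile of H2-Aa, H2-Ab1, H2-Eb1 and Cd74 over the 12 libraries, of 14999 other genes ranked, were Gm17669 (r = 0.92), Ankrd10, Gm15610, Txnip, 2210408I21Rik, Sirt7, Ip6k1, Gm10177, Rala and Accs (r = 0.84). The ranking is a description and no r was tested. With 12 libraries and 14999 genes, high values can arise among unrelated genes. Of these Gm17669, Gm15610 and Gm10177 are annotated as processed pseudogenes. None belongs to the class II pathway list, and of the 6 members outside the profile H2-Oa came highest, with r = 0.34 at rank 5132, and H2-DMb1 lowest, with r = -0.46 at rank 14675.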

How the data were processed

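Each library held RNA of 1 purified cell type from 1 mouse, amplified and sequenced as paired reads. The antibody plates were used in series on the same cell suspension. Same-numbered libraries of an arm share sex and genotype across cell types, so they likely come from the same mouse. The main joint fit held no term for mouse or litter. Per the labels and the study's methods, the authors aligned reads with STAR 2.7.8a to GRCm39 and counted read pairs per Ensembl gene with HTSeq; the deposited values are raw counts, with 5 summary rows (33.5% to 52.0% of read pairs) that were left out. From the counts, CPM was computed on gene totals. Counts were tested with edgeR 4.0.16 (quasi-likelihood, TMM, filterByExpr with minimum count 10 and minimum total 15, Benjamini-Hochberg adjusted p under 0.05; R 4.3.3), per cell type on sex and genotype, and jointly over 43 libraries on cell type by genotype group and sex. DESeq2 1.42.0 and limma 3.58.1 (voom) served as alternatives, and the fits were tested on simulated data. The depth of 6499417 to 23118497 counts sets the precision, and floors use 3 counts and cover counting error only. Libraries of one cell type shared a sequencing lane, so lane and cell type cannot be told apart; genotypes shared it. The littermate numbers mark litters shared by a control and a Rag2-/- mouse, and deviations of same-numbered libraries had a mean correlation of 0.0868 in microglia, 0.134 in astrocytes, 0.0923 in OPCs and 0.109 in oligodendrocytes. Permutation tests drew 100000 resamples and are two-sided, as are the fits. Likeness profiles used log2 of CPM plus 0.5. Of 55416 gene IDs, 54749 were named by GENCODE M39; the microglia marker Fcrls matched none. The named genes are the 10 members, called or lowest-p genes of the pathway list, leading markers, and the 10 genes most like the class II profile. Members and lists were chosen with earlier results of these data known. Promoter sequences and coordinates are from the GRCm39 genome and GENCODE M39.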

Additional observations from a re-analysis of the deposited data

Results flagged for a closer look

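Of 78 groups of 4 to 6 libraries, 16 had 1 library far from the rest in CPM of a member by Dixon's test at the 95% level. For normal and independent values chance gives about 1 in 20. Low counts are not normal and the groups likely share mice, so the 16 are not read against that rate. In all 16 that library was the high one, 12 rested on 50 counts or fewer, and 1 was in microglia. Littermate pair 3 accounted for 9 of the 16. Same-numbered libraries of an arm likely come from the same mouse. The flags and marker sums of this pair are thus not repeats in separate animals. Libraries of pair 3 stood out for Cd74 in Rag2-/- OPCs (15.3 CPM, median of the others 2.12), Rag2-/- oligodendrocytes (7.80 against 0.744) and Rag2-/- astrocytes (4.31 against 0.676). They also stood out for H2-DMa in control OPCs (26.3 against 14.7) and Rag2-/- OPCs (20.3 against 8.62), for H2-Oa in control OPCs (2.39 against 0.198) and Rag2-/- oligodendrocytes (1.14 against 0), and for H2-Ab1 in control astrocytes (1.80 against 0.374) and Rag2-/- astrocytes (0.775 against 0.0931). The summed microglia markers were highest in the pair 3 library in each of the 6 groups of the other glia, for example 1046 CPM in control OPCs, 1031 CPM in Rag2-/- OPCs and 311 CPM in control astrocytes. The summed border macrophage markers were highest in the pair 3 library of each of these groups too, for example 111 CPM in Rag2-/- OPCs (next 37.1), 74.5 CPM in control OPCs (next 64.9) and 32.0 CPM in control astrocytes (next 18.3). The part of either cell type in these values was not tested.

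The other 7 were single high libraries outside that pair. Ciita was 5.29 CPM in astrocyte control replicate 1 (median of the others 2.12). H2-DMb1 was 1.78 CPM in oligodendrocyte control replicate 5. H2-DMb2 was 3.38 CPM in microglia control replicate 1, 1.57 CPM in OPC control replicate 5 and 1.42 CPM in oligodendrocyte control replicate 6, with 0 in the other control libraries of the last 2 groups. H2-Oa was 0.460 CPM in astrocyte control replicate 2, which is 3 counts, and H2-Ob was 2.703 CPM in astrocyte Rag2-/- replicate 1. No member was higher in Rag2-/- in every pair of one cell type and lower in every pair of another.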

How the results depend on the processing

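The number of members called kept within 1.5 times of its value under every alternative run: 0 by genotype in each cell type, 0 by sex in microglia and 0 by the difference of the genotype effect, with the littermate pair as a replicate block, no sex term, heterozygous controls alone, DESeq2, voom, other size factors, no filter and each library left out; 9 to 10 against astrocytes, 9 to 10 against OPCs and 8 to 10 against oligodendrocytes. The replicate block changed no call (9, 10 and 8 members in the 3 cell type contrasts). Leaving out littermate pair 3 outside microglia or the mitochondrial genes, both chosen after seeing the data, gave 9, 10 and 8 as well. Single members crossed the threshold in 6 cases: Ciita passed against astrocytes in the Rag2-/- groups (1.65, adjusted p = 0.0496), failed against OPCs there (1.03) and passed against oligodendrocytes with voom (3.66), and H2-DMb2 passed against oligodendrocytes in the Rag2-/- groups (7.39), with voom (4.38) and without oligodendrocyte control replicate 6 (7.64). Counts over all genes moved with the filter and tool: without a filter 9 genes passed by genotype in microglia, 30 in astrocytes, 90 in OPCs and 14 in oligodendrocytes, 25 by sex and 60 by the difference, against 1, 1, 1, 0, 7 and 2, and DESeq2 gave 3, 1, 5, 205, 11 and 46. Dropping 1 microglia library gave up to 2 by genotype, and the difference had 1 with voom, with heterozygous controls, without pair 3 or without OPC Rag2-/- replicate 3. Signs changed for uncalled genotype values (log2): Ciita in microglia was -0.0904 with voom and -0.13 without the sex term (-0.26 to 0.22 with 1 library left out); Cd74 and H2-Ob there ran from -0.0136 to 0.20 and -0.15 to 0.0238 with 1 library left out. In OPCs H2-Eb1 was -0.011 with voom, -0.25 with heterozygous controls and -0.46 without pair 3 (-0.55 to 0.67 with 1 library left out), and H2-Aa and Cd74 ran from -0.0394 to 1.18 and -1.40 to 0.22. In oligodendrocytes H2-Aa was 1.36 with voom, 1.60 with the replicate block, 0.20 with heterozygous controls and 0.65 without pair 3 (-1.96 to 0.54), Cd74 was -0.30, -0.10 and, without the sex term, -0.70, and -0.98 without pair 3 (-1.08 to 0.77), and H2-DMa was 0.0120 with the block, 0.0242 without the sex term and 0.15 without pair 3 (-0.37 to 0.48). The cause was not tested. Counts per microglia library were 16 to 85 for Ciita and 11 to 36 for H2-DMb2.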

Other observations

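Within a microglia library Cd74 stood at 1.73 ± 0.148 times H2-Aa in the 6 controls (range 1.52 to 1.91) and at 2.07 ± 0.193 times in the 6 Rag2-/- libraries (range 1.88 to 2.31). The ranges overlap narrowly. This ratio was chosen after its values had been seen and was not tested.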
